A study of Homo sapiens with 2 samples.

Results

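The genes described here encode the proteins of the cytosolic ribosome. They were chosen by name: protein-coding genes whose symbol is RPS or RPL with a number and at most 1 of the letters A, X or L, or is RPSA, RPLP0, RPLP1 or RPLP2. RPS18 fits that rule but was left out. This gave 80 genes, 31 of the small and 49 of the large subunit, among 57820 genes counted. They were measured in T47D, a human luminal breast cancer line, whose cells carried the ESR1 Y537S exchange, which keeps estrogen receptor alpha active without hormone. The cells had been kept in medium without hormones, and 25 nM of a control siRNA was given to all of them. They form 1 group with 2 libraries, replicate 1 and replicate 2, made from ribosomal RNA-depleted total RNA. The count columns name the cell line, the mutated residue and the replicate, but not the siRNA. That these columns are the control siRNA libraries therefore rests on their match to the sample labels. No other condition was analysed, so every value describes this 1 group. How the Y537S cells were derived is not stated, nor is it stated that the libraries came from different cultures, and differences between them may be technical only. In bulk RNA, fewer cells expressing a gene and less of its RNA per cell cannot be told apart.

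The ribosome has a small subunit, which reads the mRNA, and a large subunit, which joins the amino acids. Most of its proteins are present in 1 copy per ribosome, and human cells make each of them mainly from 1 gene with introns, which has left many intronless copies, or processed pseudogenes, in the genome. Their mRNAs typically begin with a C followed by a run of C and T, the terminal oligopyrimidine (TOP) tract, through which the kinase mTOR and the RNA-binding protein LARP1 govern their translation.

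The libraries held 41370662 reads on genes in replicate 1 and 37198274 in replicate 2. All 7 luminal epithelial markers were at 1 CPM (reads scaled to library depth) or more in both libraries, with KRT19 at 1371 and 1399 TPM. None of the 3 basal, 3 immune and the measured endothelial marker reached 1 CPM in both, and of 3 mesenchymal markers COL1A1 did, at 1.05 and 1.16 TPM. Levels of different genes are given in TPM, in which reads are divided by the summed exon length of the gene and scaled to the same total over all genes in each library.

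Ribosomal protein mRNAs were among the most abundant of the cell. At 1 CPM or more in both libraries 77 of the 80 genes were detected, against 60.9% of all protein-coding genes. Their median was 226 ± 10.5 TPM (mean ± SD of the 2 library medians), beside 2.31 ± 0.165 TPM over all protein-coding genes and 9.27 ± 0.905 over the detected ones. Together they took 5.49% of the reads on protein-coding genes in replicate 1 (exact binomial 95% interval 5.48 to 5.50) and 5.89% in replicate 2 (5.88 to 5.89), intervals that cover counting error only. Of the 100 protein-coding genes with the highest TPM 31 were members, and of the 1000 highest 70 were. At 500 TPM or more in both libraries stood 14 members, 63 were at 100 TPM or more in both, and 17 stayed under 100 TPM in both.

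Most matched members had a TOP tract at an annotated start, and a selection is shown because the tract was no part of the choice of members. The sequences run from 25 bases before to 20 bases from the start annotated by RefSeq (GRCh38.p14), 5′ to 3′ on the gene's strand. Capitals mark the annotated start base and the unbroken run of C and T after it. RPL7A, RPS27, RPL35 and RPS12 are the highest members of those printed, RPL39 has the longest run, RPLP0 belongs to the ribosomal stalk, and RPL36A is the lowest detected member. RPS4X, RPS27L and RPL10L have no TOP tract at the annotated start.
RPL7A (chr9:133348193-133348237, plus strand): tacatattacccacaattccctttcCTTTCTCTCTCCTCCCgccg
RPS27 (chr1:153990737-153990781, plus strand): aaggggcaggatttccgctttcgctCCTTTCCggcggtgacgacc
RPL35 (chr9:124861938-124861982, minus strand): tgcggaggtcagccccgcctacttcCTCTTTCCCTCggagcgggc
RPS12 (chr6:132814544-132814588, plus strand): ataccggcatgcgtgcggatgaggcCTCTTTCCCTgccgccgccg
RPL39 (chrX:119791611-119791655, minus strand): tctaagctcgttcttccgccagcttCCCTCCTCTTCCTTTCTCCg
RPLP0 (chr12:120201092-120201136, minus strand): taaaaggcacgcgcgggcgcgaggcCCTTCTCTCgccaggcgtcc
RPL36A (chrX:101390986-101391030, plus strand): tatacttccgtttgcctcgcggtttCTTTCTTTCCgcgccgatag
RPS4X (chrX:72277229-72277273, minus strand): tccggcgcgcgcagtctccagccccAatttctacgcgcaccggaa
RPS27L (chr15:63157458-63157502, minus strand): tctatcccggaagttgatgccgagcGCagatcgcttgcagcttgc
RPL10L (chr14:46651762-46651806, minus strand): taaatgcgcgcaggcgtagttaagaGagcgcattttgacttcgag

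A start of C followed by at least 4 bases that are C or T was present at 45 of the 63 members found in the RefSeq promoter table (71.4%), against 6.42% of its 14978 protein-coding genes. A gene counted when any of its annotated starts fitted, and a run that begins beside the annotated base did not count. Per annotated start the share was 57.7% of 78 for members and 4.63% for all genes. The 18 members without such a start were RPL10A, RPL10L, RPL15, RPL17, RPL19, RPL27, RPL3, RPL32, RPL4, RPL6, RPL9, RPS15, RPS26, RPS27L, RPS28, RPS29, RPS4X and RPS7. Among them RPL3, RPS7 and RPS15 begin with a C that is followed by fewer than 4 of these bases. Another 17 members were not matched, among them RPL23, RPL23A, RPL30, RPL37, RPL39L, RPL3L, RPL5, RPL7, RPL8, RPS15A, RPS2 and RPS20. The classes had similar medians, 228 ± 13.0 TPM for the 45 members with a TOP start and 234 ± 6.86 TPM for the 18 without one (SD over the 2 libraries).

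Other short motifs were searched on both strands from 250 bases before to 50 bases after the start. The core site of ETS factors, CCGGAA, was in the window of 36 of 63 members (57.1%) and 27.1% of all genes. The GC box GGGCGG was in 38 (60.3%), against 65.7% of all genes, and TATAAA in 6 (9.52%), against 12.3%. AANATGGC, a core of YY1 sites, was in 10 members (15.9%; 9.87% of all genes). The E box CACGTG was in 4 (6.35%; 10.9%). A palindrome of 10 bases was also in 4 (6.35%), against 0.741% of all genes. Motifs were searched separately, and overlaps between them were allowed. A match describes letters in the window and says nothing of binding.

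Small subunit genes had a median of 237 TPM in replicate 1 and 227 in replicate 2, and large subunit genes 209 in each, so the medians lay close while the genes within either subunit differed widely. Their order was reversed in CPM, with 427 for small and 490.3 for large subunit genes, so it depends on the scale. RPS27, at the platform side of the small subunit, led that subunit with 1056 and 1033 TPM (ENSG00000177954.7; hg19 chr1:153963235-153964626). RPS12, a protein of the small subunit head region, followed with 759 and 736 TPM. RPS2, at the mRNA entry, had 678 and 616 TPM, and RPS25, which some viral mRNAs need for initiation, 630 and 615 TPM. In TPM all 4 were thus far above the subunit's median in each library. In CPM RPS12 had 373 and 402, below the subunit's median of 427 (mean of the library medians).

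Genes for proteins along the path of the mRNA had mean levels from 77.7 to 647 TPM. RPS3, which helps to hold the mRNA at its entry, had 429 and 394 TPM. RPS15, near the decoding centre, had 213 and 202 TPM, and RPS23, which reaches into that centre, had 77.2 and 78.2 TPM. RPS26 and RPS28, which line the mRNA exit, had 178 and 161 TPM and 124 and 132 TPM. Of the 7 genes grouped here, which also include RPS2 and RPS9, the highest in TPM was RPS2 and the lowest RPS23. In CPM RPS3 was above RPS2, with 1619 and 1657 against 1047 and 1059. RPS26 (183 and 184 CPM) and RPS28 (169 and 200 CPM) were then below RPS23 (208 and 234 CPM). RPS6, the classical substrate of the S6 kinases, had 443 and 448 TPM. RPS27A, made as a fusion of ubiquitin and a ribosomal protein, had 235 and 218 TPM, and RPSA, also known as the laminin receptor, 281 and 255 TPM.

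The highest member of all was the large subunit gene RPL7A (ENSG00000148303.12; hg19 chr9:136215069-136218281), with 1481 TPM in replicate 1 and 1359 in replicate 2. Its exact Poisson 95% intervals were 1471 to 1491 and 1349.8 to 1369. It ranked 5 among protein-coding genes. RPL8, which lies at the peptidyl transferase centre, the site of peptide bond formation, had 1193 and 1105 TPM. Its neighbours at that centre were lower, RPL3 with 454 and 416 TPM and RPL10 with 185 and 185 TPM. Other rows of the table cover 37.0% of the exon bases of RPL10, the highest share among the members, and the recorded count call holds no option for reads on shared bases.

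Genes of the stalk, which recruits the elongation factors, had unequal TPM. Its base protein gene RPLP0 had 669 and 616 TPM and RPL12, which anchors it, 607 and 577 TPM. RPLP2 had 209 and 217 TPM and RPLP1 39.1 and 37.6 TPM, although the 2 proteins form dimers. RPL5 and RPL11, which carry the smallest ribosomal RNA into the large subunit and bind MDM2 when ribosome assembly fails, had 342 and 304 TPM and 500.2 and 454 TPM. Around the tunnel through which the new chain leaves, RPL4 had 331 and 307 TPM, RPL39 153 and 144 TPM and RPL17 8.87 and 7.02 TPM. At the rim of its exit, RPL35 had 797 and 752 TPM, RPL19 703 and 661, RPL31 117 and 109, RPL23A 90.4 and 88.4 and RPL26 62.4 and 59.6 TPM. Mean levels thus ranged from 38.4 to 642 TPM in the stalk. They ranged from 7.94 to 319 TPM in the tunnel group and from 61.0 to 775 TPM at the rim. The low end of the tunnel group was RPL17, with 34.6% of its exon bases covered by other rows. RPL5 and RPL11, only 2 genes, had means of 323 and 477 TPM.

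**Figure D1:**
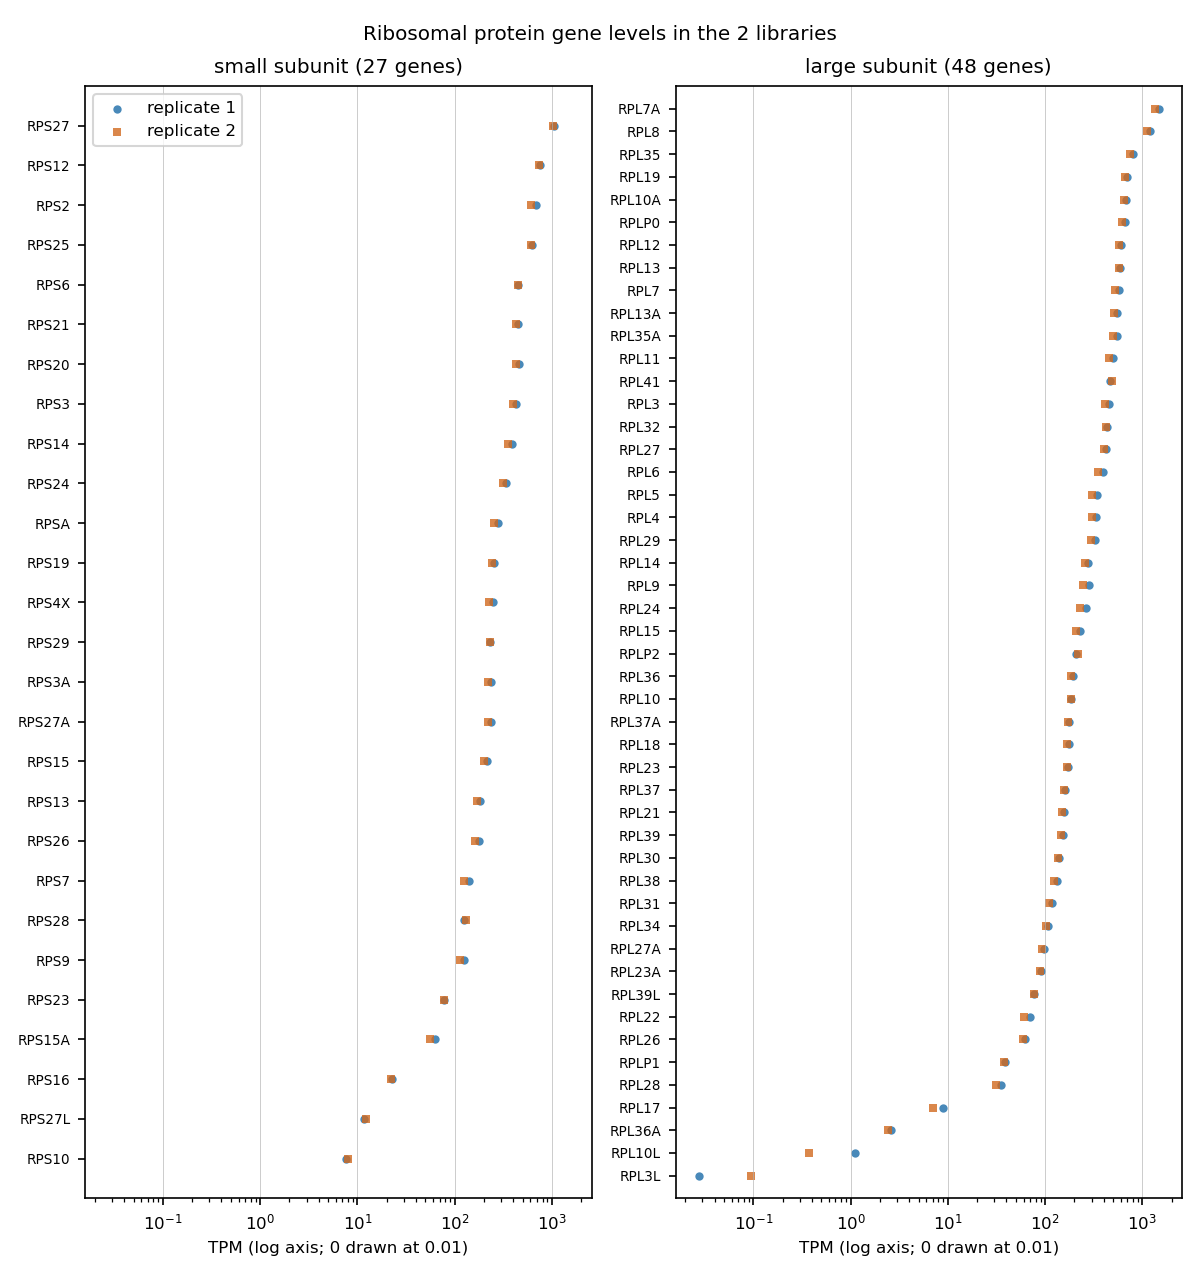
TPM (log axis) of 27 small subunit and 48 large subunit genes, sorted by mean, in replicate 1 (circles) and replicate 2 (squares). The libraries nearly coincide from RPL7A (1481 and 1359 TPM) down to RPL36A (2.58 and 2.44 TPM), and separate at RPL10L and RPL3L, which had few reads.

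Among the 77 detected members the SD of the mean log2 TPM was 1.67, and the highest stood 565-fold above the lowest. The lowest was RPL36A, whose named pseudogene rows held 78.5% of the reads of its family, so the low end of this span is uncertain. The quartiles were 132 and 442 TPM, and 43 of the 77 lay within 2-fold of the median. The 2 libraries differed far less: the median SD between them was 4.63% of a gene's mean, and the counting interval of any member with 1000 reads or more was at most ± 5.55%. The rank correlation of TPM between the libraries was 0.998 over these members. Neighbours in the order often lay within the SD between the libraries, which includes the drop in TPM that most members shared in replicate 2. RPL19 (682 ± 29.6 TPM), RPL10A (665 ± 27.9), RPS2 (647 ± 43.9), RPLP0 (642 ± 37.8) and RPS25 (622 ± 10.9 TPM) follow each other, and each overlapped the next within their SD (n = 2 each), while RPL19 and RPL10A did not overlap RPS25. In replicate 1 they stood in this order, and in replicate 2 RPS2 and RPLP0 had 616 TPM each.

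The order also depends on the length by which reads are divided. The summed exon length of RPL41, which encodes the shortest ribosomal protein, was 1088 bases, and its longest coding sequence in GENCODE release 29 was 75 bases. RPL37 had 8153 exon bases and 291 coding bases. With reads divided by coding length and scaled to the same total over protein-coding genes, RPL41 moved from rank 18 in TPM to rank 1, with 5785 and 6780 such units, and RPL35A from rank 15 to 2 (4222 and 4351). RPL37 moved from rank 53 to 3 (3810 and 4268), while RPL7A moved from 1 to 4 (3563 and 3691) and RPS12 from 5 to 40 (1259 and 1377). Across the 77 members, which share libraries and depth, the rank correlation of the 2 scales was 0.71, and that of TPM with CPM 0.79. The lowest ranks hardly moved: RPL36A, RPS10 and RPL17 held ranks 77, 76 and 75 in TPM and 76, 77 and 75 by coding length.

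**Figure D2:**
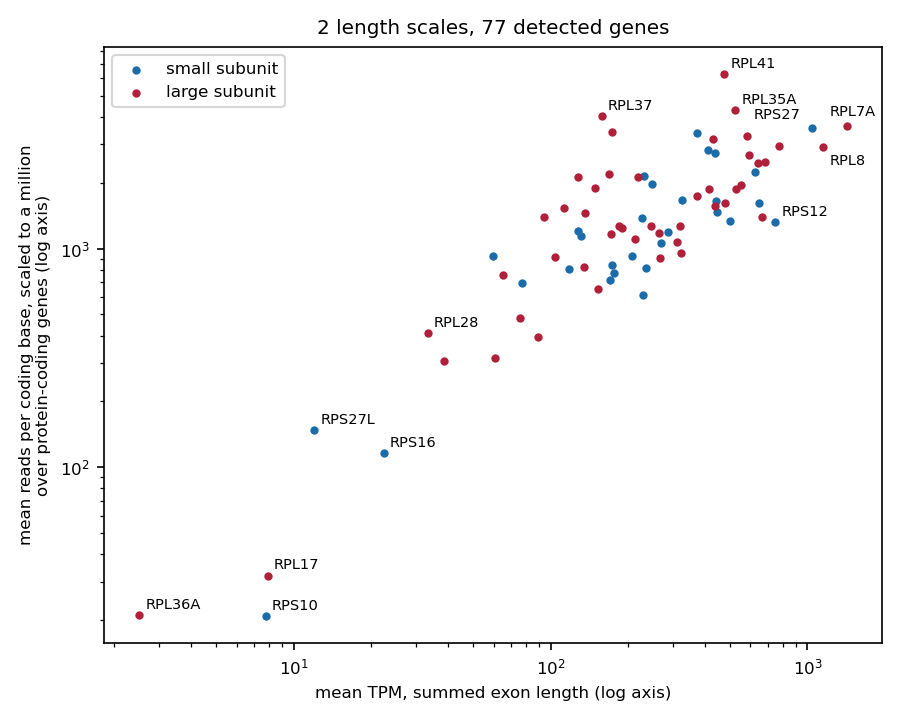
Mean scaled reads per coding base against mean TPM over summed exon length, for the 77 detected members (both axes log; blue small, red large subunit). RPL41 and RPL37 stand high on the vertical axis for their TPM, and RPL36A, RPS10, RPL17, RPS16 and RPS27L are low on both.

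The members at the low end were a mixed set. RPL36A had 2.58 TPM (2.29 to 2.91) in replicate 1 and 2.44 (2.15 to 2.76) in replicate 2, with 8.48% of its exon bases shared. Shared percentages are taken over all annotated exon bases, 3927 for RPL36A, whose longest coding sequence has 426. A small percentage can therefore still cover much of a coding sequence. RPS10 had 7.61 and 7.95 TPM and RPL17 8.87 and 7.02 TPM, with other rows covering 28.9% and 34.6% of their exon bases. RPS16 had 22.9 and 21.9 TPM, RPL28 35.1 and 31.5 TPM and RPLP1 39.1 and 37.6 TPM, with no exon base covered by another row. All 6 were low in both libraries alike.

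RPS18, which was left out, had 1 and 0 reads (ENSG00000231500.2; hg19 chr6:33239787-33244287). Of 35 protein-coding neighbours within 500 kb of it, 27 had fewer than 10 reads over both libraries. Around RPS10, also on chromosome 6, 1 of 11 neighbours was that low. Of the 11 neighbours of RPS12 9 were that low, while RPS12 itself had 15432 and 14964 reads. The share of all protein-coding genes with so few reads was not computed. By another limit, 1 CPM or more in both libraries, 60.9% of them were detected.

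Sharing of exon bases by rows and reads on pseudogenes were measured for every member, because the recorded featureCounts call holds no option to count reads that fit several places or several rows. More than 10% of the exon bases were shared in 19 of the 80 members (23.8%), against 17.9% of all protein-coding genes. Among the 77 detected members, the rank correlation of TPM with the shared percentage was -0.23, and with the number of pseudogene rows 0.05. The table held 1575 pseudogene rows named after 76 of the members, with a median of 13 rows and at most 133, for RPL21. The 4 members without one were RPL10L, RPL39L, RPL3L and RPS27L, each a paralog of another member.

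Few reads were assigned to these copies. No read fell on 802 of the 1575 rows in either library, 590 had a read in both, and 95 were at 1 CPM or more in both. They held 2.84% of the reads on members and copies together in replicate 1 (exact binomial 95% interval 2.82 to 2.86) and 2.72% in replicate 2 (2.70 to 2.75). RPS2P5 led with 8150 and 7142 reads, beside 43332 and 39387 on RPS2. It was followed by RPL6P27 with 3589 and 3088, RPLP0P6 with 3124 and 2809, RPL24P4 with 2527 and 2455 and RPL7P9 with 2393 and 2204 reads. RPL36A and RPL17 were the exceptions among detected members: their copies held more reads than the genes, 1044 and 870 against 269 and 254 for RPL36A, and 1468 and 1400 against 576 and 456 for RPL17. Copies held 78.5% and 73.5% of the reads of these families, 22.8% for RPS10, 1.69% for RPS16 and 0.41% for RPLP1. The part of shared rows and copies in the low counts was not tested.

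**Figure D3:**
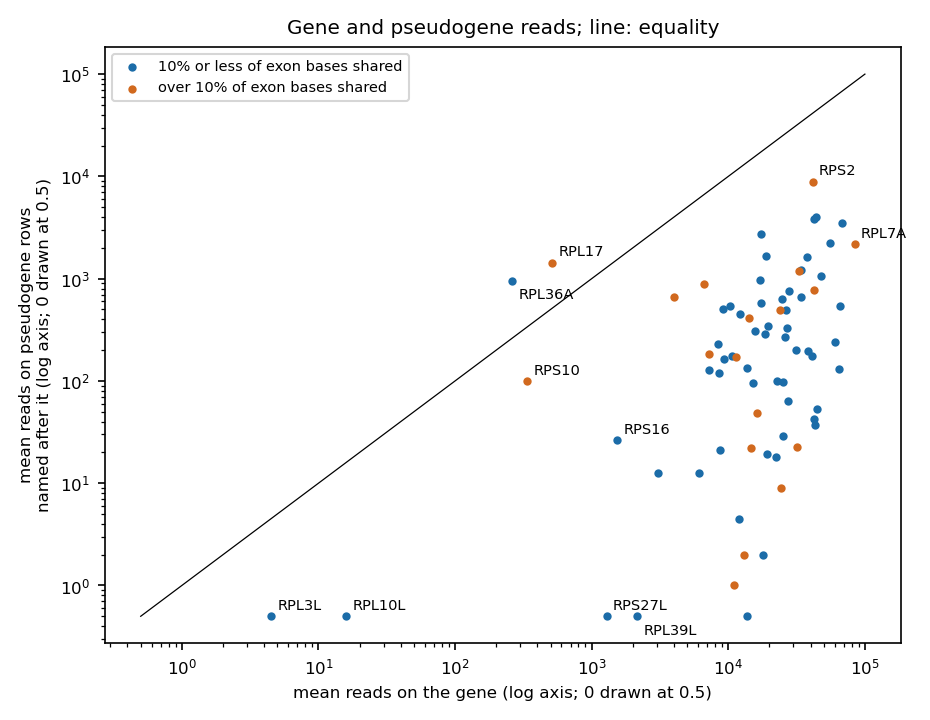
Mean reads on the pseudogene rows named after a member against mean reads on the member itself (both axes log, 0 drawn at 0.5, line of equality); orange points share over 10% of their exon bases with other rows. RPL17 and RPL36A lie above the line, and RPS2 has the most pseudogene reads.

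Most paralogs of ribosomal protein genes stood below the gene they resemble, by amounts that differed widely between pairs, and RPL36AL stood far above. The 9 pairs described here all differed in the same direction in both libraries by more than counting error. Each difference also exceeded the 95th percentile of absolute differences between the libraries in the CPM class of the lower partner. That limit compares a gene with itself and does not cover errors from exon length or shared bases, which differ between partners. Levels of different members vary widely, with an SD of 1.67 on the log2 scale, so passing the limit is no trait of paralogs. The share of other gene pairs that would pass was not computed. RPL3L, the form of skeletal muscle and heart, had 2 and 7 reads, or 0.0274 and 0.0957 TPM, against 454 and 416 TPM for RPL3, a ratio of 6.0e-05 (95% counting interval 7.3e-06 to 2.2e-04) in replicate 1 and 2.3e-04 (9.2e-05 to 4.7e-04) in replicate 2. RPL10L, the testis form, had 24 and 8 reads, or 1.12 and 0.374 TPM, against 185 and 185 TPM for RPL10. The log2 ratio was -8.16 ± 1.12 for RPL10L, and -10.74 in CPM and by coding length. It was -13.05 ± 1.37 for RPL3L, with -13.85 in CPM and -13.86 by coding length. The tissue-restricted forms of muscle and testis thus had few reads, which differed between the libraries.

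RPL39L, a paralog of RPL39 that is best known from testis and has also been found in cancer lines, was well detected with 76.1 and 76.4 TPM, against 153 and 144 TPM for RPL39 (log2 ratio -0.96 ± 0.060, SD, n = 2). In CPM or by coding length that log2 ratio was -1.97, as RPL39L has 1060 exon bases and RPL39 2141, while the coding sequence has 153 bases in each. RPS27L, a target of p53 in human cells, had 11.8 and 12.2 TPM, against 1056 and 1033 TPM for RPS27, 86.9-fold lower (log2 ratio -6.44 ± 0.055), and the log2 ratio was -4.35 in CPM and -4.60 by coding length. RPL22L1 had 25.5 and 22.3 TPM, against 69.5 and 61.4 TPM for RPL22 (-1.45 ± 0.011; -2.53 in CPM and -2.46 by coding length). RPL26L1 had 43.8 and 39.3 TPM, against 62.4 and 59.6 TPM for RPL26 (-0.55 ± 0.064), the smallest difference, which was -1.64 in CPM and by coding length. RPL7L1 had 44.4 and 35.0 TPM, against 579 and 526 TPM for RPL7 (-3.81 ± 0.14; -2.38 in CPM and -2.42 by coding length). Canonical forms led in each of these 5 pairs on all 3 scales.

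The first-named gene was the higher one in 2 pairs. RPL36AL, a paralog of RPL36A that the naming rule leaves out, had 588 and 538 TPM, against 2.58 and 2.44 TPM for RPL36A (log2 ratio 7.81 ± 0.030; 5.41 in CPM and 5.83 by coding length). Reads of these near-identical genes and of the 52 pseudogene rows of RPL36A can fit more than 1 place, so this ratio is uncertain. RPLP2 exceeded its partner RPLP1 5.56-fold (log2 ratio 2.47 ± 0.078; 1.86 in CPM and 1.85 by coding length). The part of shared bases and of reads that fit several places in this ratio was not tested.

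**Figure D4:**
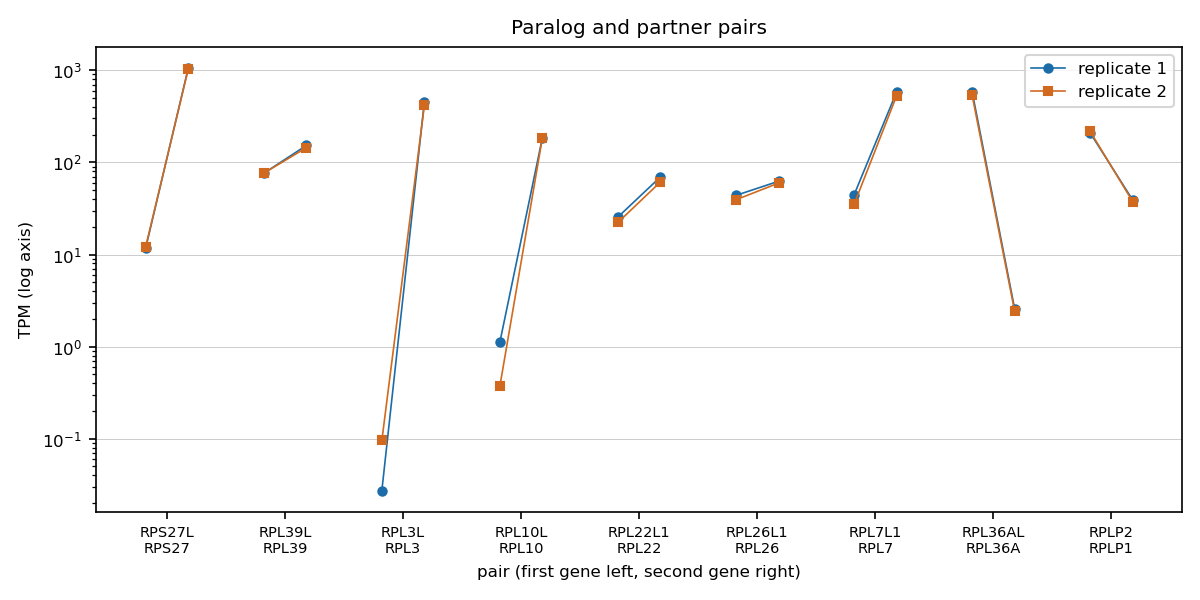
TPM (log axis) of the 9 pairs, first-named gene left and second-named gene right, with a line per library (blue circles replicate 1, orange squares replicate 2). Lines rise to the right in 7 pairs and fall in RPL36AL with RPL36A (588 and 538 against 2.58 and 2.44 TPM) and RPLP2 with RPLP1.

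Many members host small nucleolar RNAs, which guide the modification of ribosomal RNA, in their introns. A snoRNA row lay within the span and on the strand of 28 of the 80 members (35%), 9 of the small and 19 of the large subunit, against 0.893% of all protein-coding genes. These 58 rows were 11.8% of the 493 snoRNA rows matched by name. RPL7A holds SNORD24, SNORD36A, SNORD36B and SNORD36C, and RPL13A, RPL4 and RPL23A also hold 4 each. Together the rows had 877 and 1126 reads. RPS3 led with 468 and 686 reads on SNORD15A and SNORD15B, beside 66975 and 61621 reads on RPS3 itself. The 40 rows that exons of other rows cover completely were the 40 without a read in either library, so a missing snoRNA count there is no measure of the snoRNA.

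The 2 libraries were compared gene by gene on TMM-scaled CPM, a scaling that sets the typical gene equal. There is 1 library on each side, so no p-value is given. Of the 77 members at 1 CPM or more on average, 74 were higher in replicate 2, against 49.4% of the 14668 genes compared. The median log2 difference of replicate 2 over replicate 1 was 0.080 over members, beside -0.003 over all these genes and -0.030 over protein-coding genes at 100 CPM or more. It was 0.069 over small subunit and 0.084 over large subunit members, so the shift was small and shared by both subunits. No member differed by 0.32 or more on the log2 scale in either direction, while 10.3% of all genes were that much higher and 7.53% that much lower. Such differences were rare among abundant genes: of 1981 protein-coding genes at 100 CPM or more, which include 70 members, 0.707% were that much higher and 1.72% that much lower, and 39.7% were higher by any amount. Of those 70 members 68 (97.1%) were higher by any amount. The largest rise was that of RPS28, with 201 scaled CPM in replicate 2 and 168 in replicate 1, or 1.20-fold. RPL17, RPL9 and RPL22 were the 3 lower ones, RPL17 with 12.3 against 13.8 scaled CPM.

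In TPM the sign was the other one: 68 of the 77 members were lower in replicate 2. TPM there is scaled over all genes, and the summed TPM of protein-coding genes was 277626 in replicate 2 and 311104 in replicate 1. The direction of a replicate difference therefore depends on the scale, and the share of protein-coding reads, 5.89% in replicate 2 and 5.49% in replicate 1, goes with the TMM value.

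**Figure D5:**
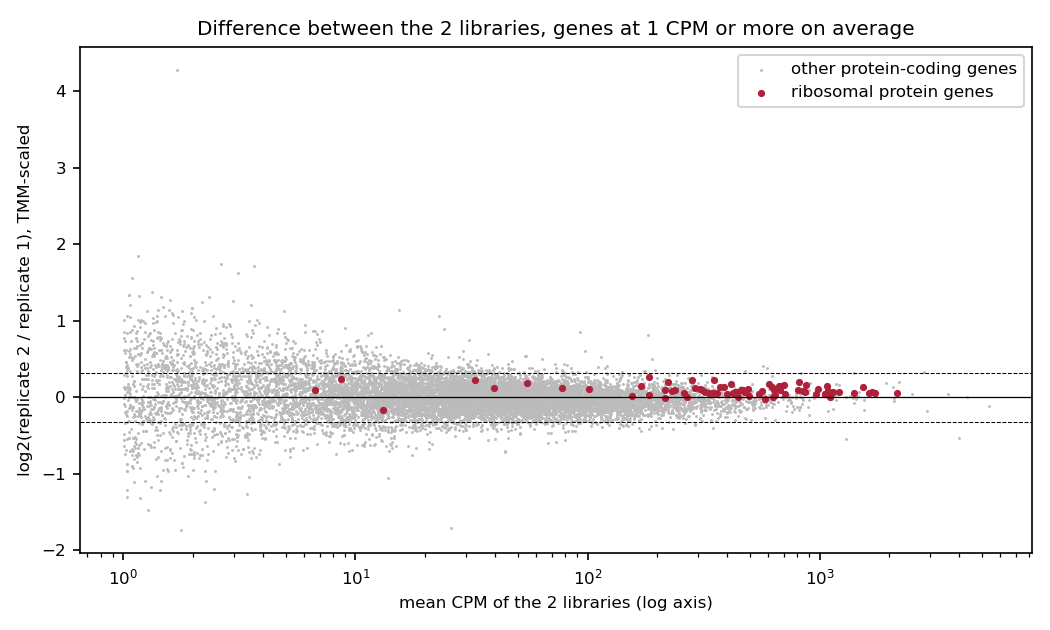
Log2 of replicate 2 over replicate 1 (TMM-scaled) against mean CPM (log axis) for protein-coding genes at 1 CPM or more on average, ribosomal protein genes in red, dashed lines at 0.32 above and below 0. All 77 red points lie between the dashed lines and 74 lie above 0.

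The lists of genes that work with the ribosomal proteins had lower medians. All 7 genes listed as ribosome components or paralogs outside the naming rule were detected. Their median was 81.4 ± 3.17 TPM, and they were led by RPL36AL, by RACK1, a scaffold on the small subunit, with 363 and 324 TPM, and by FAU, a fusion gene that yields a small subunit protein, with 200.3 and 192 TPM. Of 15 translation factor and related genes known for TOP mRNAs 14 were detected, and the list's median was 122 ± 7.70 TPM. EEF1A1, which delivers aminoacyl-tRNA, had 933 and 852 TPM, the translocase EEF2 830 and 709 and the nucleolar chaperone NPM1 490 and 422 TPM. EEF1G was the exception with 4 and 2 reads. The part of shared exon bases and of reads that fit several places in this low count was not tested.

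All 29 matched ribosome biogenesis genes passed 1 CPM, and their median was 23.0 ± 1.72 TPM. Highest were NPM1, which is in both lists, EIF6, which keeps the subunits apart, with 108 and 95.3 TPM, and SBDS, which helps to release it, with 98.2 and 82.3 TPM; BOP1 was not matched. The 7 chaperones of ribosomal proteins had a median of 11.2 ± 1.27 TPM, with NAP1L1 at 70.0 and 55.9 TPM, AAMP at 67.6 and 57.1 and BCCIP at 14.2 and 11.5 TPM. The 9 regulators of TOP translation had a median of 16.7 ± 1.58 TPM. They were led by the translation repressor gene EIF4EBP1 with 174 and 148 TPM, LARP1 with 42.8 and 37.3 and EIF4EBP2 with 25.4 and 19.6 TPM.

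The mitochondrial ribosome gave a second scale. Of its 76 protein genes 74 were detected. The list's median was 28.9 ± 2.80 TPM, and the cytosolic set was above it in each library, with medians of 233 TPM for cytosolic against 30.9 for mitochondrial genes in replicate 1 and 218 against 27.0 in replicate 2. MRPS34 had 242 and 218 TPM, MRPL47 147 and 128 and MRPL14 118 and 115 TPM. MRPS18B had no read and MRPL30 had 8 and 5. Whether these low counts reflect low RNA or reads missing from the counts was not tested. Detected genes of the mitochondrial ribosome split evenly between the libraries, 37 higher and 37 lower in replicate 2 on the TMM scale. Of the detected biogenesis genes 10 were higher and 19 lower there, and of the detected translation factor genes 5 were higher and 9 lower. Of the chaperones 1 was higher and 6 lower, and of the regulators of TOP translation 1 was higher and 8 lower. Of the ribosome components or paralogs outside the naming rule 5 were higher and 2 lower. Of the 11731 detected protein-coding genes 5680 were higher and 6051 lower, and of those at 100 CPM or more on average 39.7% were higher. The lists are short, and their counts were not tested against these shares. These differences again rest on 1 library each.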

How the data were processed

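The deposited values are whole-number counts without normalization, which the authors made, per the file headers, with featureCounts 2.0.2 on the exons of GENCODE release 19 and no strand, paired-end, multimapping or overlap option. Per the submitters' processing notes, HISAT2 and hg19 (GRCh37) were used. The library kit keeps strand, per the labels' protocols, but counting without it means that overlapping antisense genes cannot be told apart, and if reads were paired, mates were counted singly. Columns were matched to samples by cell line, the mutated residue and replicate number; the names do not repeat the siRNA. Another 8 columns of per-sample values match no sample described here and were not used.

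CPM and TPM were computed from the deposited counts and exon lengths. Names matched 51996 of 57820 identifiers; gene types and coding lengths came from GENCODE release 29. Shared exon bases were computed from the deposited exons on either strand. TMM factors came from edgeR 4.0.16 and alternative size factors from DESeq2 1.42.0. Counting intervals are exact at 95%. Members and lists were chosen with earlier results of these data known. Any member may be named; of other lists the 3 highest and the undetected genes are, and of pseudogene rows the 5 with the most reads. PECAM1 and BOP1 were not matched. Values of some genes are not reported here, though counts and medians over all members include them.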

Additional observations from a re-analysis of the deposited data

How the results depend on the processing

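With 1 group of 2 libraries, depth sets the precision of single values, and counting intervals cover neither culture nor preparation. The medians of all, small subunit and large subunit members were 465, 427 and 490.3 in CPM, and 1313, 1173 and 1395 in scaled reads per coding length, units of another size. Without members that share over 10% of exon bases the large subunit median was 253 TPM and the small subunit median 226 TPM. In each of these runs the large subunit median was the higher one, while in TPM over all members the small subunit median was. The SD of log2 levels among detected members was 1.64 in CPM, 1.53 by coding length and 1.59 without those members. The share of TOP starts was 55.6% with at least 6 C or T after the C; 3.52% of all genes fitted then. Within 2 bases of the annotated start it was 77.8%, and 15.1% of all genes. With 1 library left out, the medians ranged from 218 to 233 TPM for all members, 227 to 237 for the small and 208.9 to 209.1 for the large subunit. The 9 pair calls reported kept their direction in each alternative run. The median replicate difference was 0.060 with library sums and 0.067 with DESeq2 size factors, in each case 0.083 above the median of all genes. The coding length alternative was chosen after seeing the data and stands in for the planned RefSeq protein length, which was not run. No paired analysis was possible because the labels give 1 group.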
